A study of Mus musculus with 12 samples.

Results

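Axon guidance ligands and receptors were examined in the embryonic mouse cortex with and without Egfr, which encodes the receptor of epidermal growth factor. The set holds 60 genes chosen by name among the 55357 genes of the count files, with no use of their values. It comprises 11 Eph receptors, 8 ephrins, 14 semaphorins, 10 plexins and neuropilins, 9 netrin pathway genes, 6 Slits and Robos and 2 netrin-G genes. The tissue was the cerebral cortex with the hippocampal formation at E17.5, freed from the ventral forebrain and then cut across into rostral and caudal parts. Knockout embryos (NcreEGFRFF in the titles, Nestin-EgfrF/F in the protocol) carried Cre under Nestin control, which acts in neural progenitors and their progeny, and 2 floxed Egfr alleles. Control embryos (EGFRF+, EgfrF/+) carried 1 floxed allele, and whether they carry Cre is not given in the sources used here, so effects of Egfr loss and of the Cre transgene cannot be told apart. Gh, the growth hormone gene, of which some Cre transgenes carry a part, was at 6.061 to 7.87 CPM in all 6 knockout libraries and at 0 counts in all 6 controls. By title, 6 embryos gave 12 libraries, 1 rostral and 1 caudal each, or 4 groups of 3 (3 knockout and 3 control embryos). The libraries are bulk RNA, so that fewer cells of a type and less RNA per cell cannot be told apart.

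Guidance molecules steer growing axons and migrating neurons by attraction and repulsion. Ephrins are membrane-bound ligands of the Eph receptor tyrosine kinases and are known for forming graded maps, among them between thalamus and cortical areas. Semaphorins act through plexins, with neuropilins as the binding partners of most secreted class 3 semaphorins. Netrin-1 binds Dcc, neogenin and the Unc5 receptors, and Slits bind Robo receptors. In the cortex at this stage these systems act on callosal and corticofugal axons, thalamic afferents and tangentially migrating interneurons.

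Total counts ran from 25223733 to 30383672 per library, and the deposited counts were scaled to counts per 1e+06 (CPM). Egfr stood at 3.601 to 7.33 CPM in the 6 knockout and at 19.2 to 41.6 CPM in the 6 control libraries, with no overlap, which matches the genotype labels. The labels of the parts and embryos were not matched in the same way. Nr2f1, a transcription factor known for a high-caudal gradient in the cortex, was at 50.7 to 97.1 CPM in 3 of the 6 libraries labelled rostral (knockout 5, control 1 and 9) and at 205 to 348 CPM in the other 3 (knockout 7 and 2, control 3). Among libraries labelled caudal knockout 2 had 71.3 CPM and control 3 had 58.6 CPM of it, with 248 to 373 CPM in the remaining 4. Xist and Y-linked transcripts disagreed between the titled parts of several embryos, and control rostral 1 and 3 held both (Xist 230 and 278 CPM, 4 Y genes summed 94.6 and 92.0 CPM). What is said below of parts and embryos therefore concerns libraries as labelled, n counts libraries or titled sums, and p-values measure only the spread between these. Markers of cortical excitatory neurons summed to 1629 to 2706 CPM in the knockout libraries and to 1980 to 2661 CPM in the controls, as the labelled tissue should hold. Of 5 oligodendrocyte precursor markers 2, Olig1 and Olig2, were called lower in knockout by edgeR. Mitochondrial transcripts took 7.25% of counts in knockout rostral 7 and 4.77% in knockout caudal 5, against at most 3.53% elsewhere. In these 2 libraries the 60 genes summed to 6809 and 7568 CPM, the lowest of all, where the other libraries lay between 8080 and 9601 CPM. The part that RNA quality has in these sums was not tested.

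Most of the set was expressed. A mean of at least 1 CPM over the 12 libraries was reached by 58 of 60 genes, and 23 reached at least 100 CPM. To compare genes with one another, CPM were divided by exon length (CPM per kb). The highest levels belonged to one receptor, one ephrin and one secreted ligand. Epha4, a receptor for both ephrin classes, was at 60.3 ± 11 CPM per kb, Efnb2, a transmembrane ephrin, at 57.6 ± 8.99, and Sema3c, a secreted semaphorin, at 55.7 ± 11.3 (SD, n = 12 libraries each). Neo1, the neogenin receptor of netrins and repulsive guidance molecules, followed at 52.7 ± 15.3 and Draxin, a secreted netrin antagonist of midline axons, at 51.2 ± 15.2 CPM per kb (SD, n = 12). Neighbours in this order of 5 differed by less than the SD of either.

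At the other end lay Robo3 (0.0611 ± 0.0836 CPM per kb), Epha10 (0.102 ± 0.0202), Sema3d (0.140 ± 0.0336), Sema3e (0.436 ± 0.155) and Ntng1 (0.505 ± 0.122; SD, n = 12 libraries each). Robo3, known for commissural axons of hindbrain and spinal cord, was listed at 0 in knockout rostral 2 and control caudal 9. Plxnb2, a class 4 semaphorin receptor, was at 47.6 ± 4.08, Plxna4, a co-receptor for class 3 semaphorins, at 47.1 ± 8.78, and Plxna2 at 43.2 ± 4.61 CPM per kb (SD, n = 12). By family, the median level per kb was 21.5 for plexins and neuropilins, 13.1 for ephrins, 10.2 for Eph receptors, 8.76 for the netrin pathway, 5.80 for semaphorins and 4.89 for Slits and Robos. The netrin receptors lay on both sides of the ligand. Ntn1, the founding netrin, averaged 2.23 ± 2.04 CPM per kb, while its receptors Neo1 and Dcc stood at 52.7 ± 15.3 and 22.6 ± 5.22 (SD, n = 12). The Unc5 receptors ranged from 0.624 ± 0.218 (Unc5c) and 1.81 ± 0.470 (Unc5b) to 8.76 ± 2.99 CPM per kb (Unc5a; SD, n = 12). Robo1 and Robo2 were likewise above the Slits, with Robo2 at 31.1 ± 9.20 and Robo1 at 25.1 ± 9.73 against Slit1 at 7.99 ± 1.73, Slit2 at 1.79 ± 0.694 and Slit3 at 1.71 ± 1.39 CPM per kb (SD, n = 12).

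**Figure D1:**
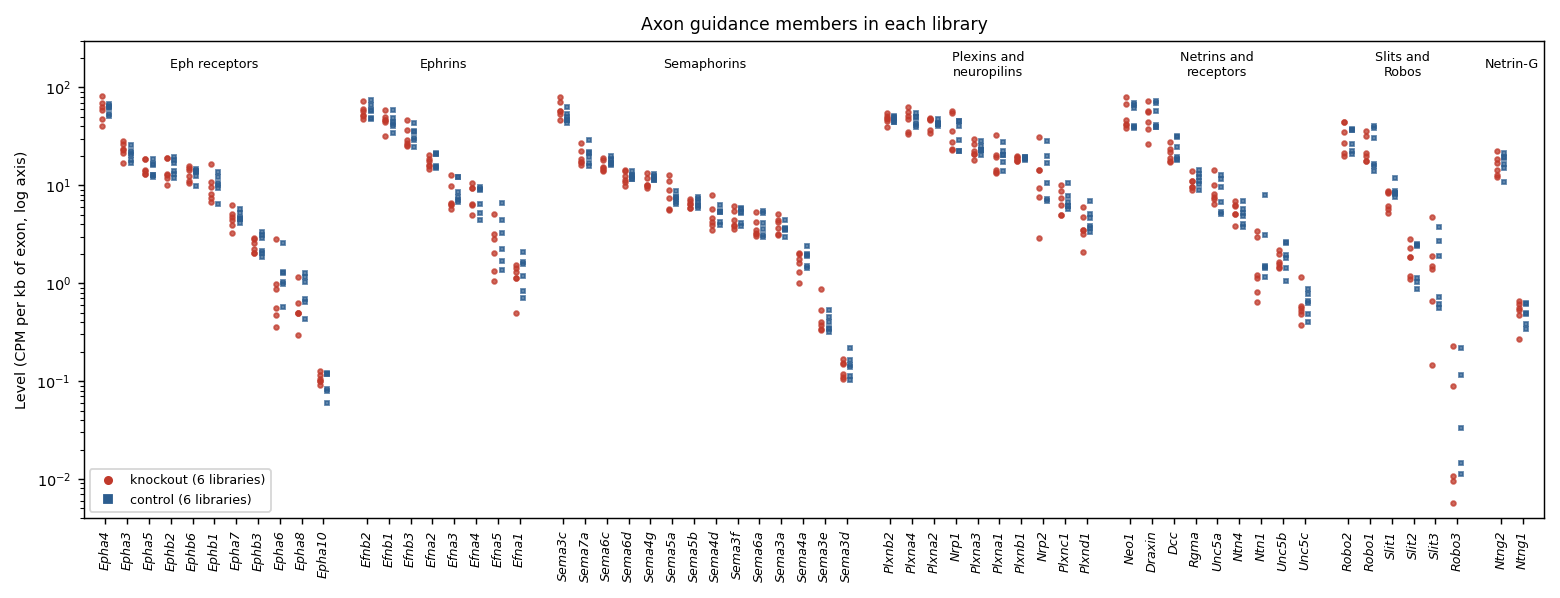
Level of each of the 60 genes in CPM per kb of exon (log axis), with 1 point per library, circles for 6 knockout and squares for 6 control libraries. Values of 0, found for Robo3 in 2 libraries, are not drawn. The genotypes overlap for every gene, and Slit3, Nrp2 and Ntn1 are among the most widely scattered genes at a mean of at least 1 CPM.

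No guidance gene passed the test of knockout against control in which the 2 libraries titled for 1 embryo were summed (3 sums against 3). These sums were not alike in Nr2f1. Knockout sum 7 joined libraries at 205 and 348 CPM of Nr2f1. Each of the other sums joined a library under 100 CPM with another at 248 CPM or more. The part that this has in the values of the sums was not tested. All 60 were tested and 0 were called by edgeR's quasi-likelihood test (Benjamini-Hochberg adjusted p under 0.05), where 0.0317% of the 18935 genes tested were called (0.0106% higher and 0.0211% lower). DESeq2 called 0 members as well. An unadjusted p under 0.05 was reached by 3 members (5.0%) against 3.4% of all genes. The median log2 fold change was -0.03 over the members and -0.000359 over all genes, with 23 members positive and 37 negative. In the single libraries, the 6 knockout and 6 control values overlapped for 60 of 60 members, where 0.124% of 17734 genes tested had groups apart. For 42 members (70.0%) the knockout mean lay between 0.9 and 1.1 of the control mean, against 74.3% of all genes, or 81.9% of those at a mean of at least 1 CPM.

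The 3 members of smallest p were 2 semaphorins and an Eph receptor, all with higher values in knockout. Sema3c (ENSMUSG00000028780.14, GRCm39 chromosome 5, 17779279 to 17935266), a secreted ligand of neuropilin and plexin receptors, was at 451, 406.8 and 460 CPM in knockout sums 5, 2 and 7 and at 361, 316 and 391 CPM in control sums 1, 3 and 9. The sums did not overlap, at a log2 fold change of 0.30 (SE 0.08, unadjusted p = 0.00625, adjusted p = 1 by edgeR). Its libraries did overlap, with 331 to 575 CPM among the 6 of knockout and 306 to 451 CPM among the 6 of control. Sema3c is also the 1 member called under any alternative to this comparison, with an adjusted p of 0.00205 where no filter on low counts was applied, against 0.269 to 1 in the 12 others.

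Sema5a (ENSMUSG00000022231.11, chromosome 15, 32244956 to 32696487), a transmembrane semaphorin with thrombospondin repeats, was at 152, 168 and 160 CPM in knockout sums 5, 2 and 7 against 136, 131 and 146 CPM in control sums 1, 3 and 9. Its log2 fold change was 0.22 (SE 0.06, unadjusted p = 0.00578, adjusted p = 1). The highest knockout libraries were caudal 2 at 237.5 CPM and caudal 7 at 209 CPM, and the lowest, rostral 2 at 105 CPM and rostral 7 at 107.5 CPM, lay below all 6 controls (119.5 to 164 CPM). Epha3 (ENSMUSG00000052504.8, chromosome 16, 63363897 to 63684538), a receptor of A-type ephrins, was at 203, 205 and 202 CPM in knockout sums 5, 2 and 7 against 188, 164 and 187 CPM in control sums 1, 3 and 9, a log2 fold change of 0.18 (SE 0.06, unadjusted p = 0.0178, adjusted p = 1). Its single knockout libraries ran from 148.5 to 249 CPM, so the closeness of its knockout sums did not hold library by library. Non-overlapping sums were found for these 3 members, 5.0% of 60, where 8.37% of all genes tested had them.

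A further pair of semaphorins completes the 5 smallest p-values, with overlapping sums. Sema4g, of the transmembrane class 4, had a log2 fold change of -0.13 (SE 0.06, unadjusted p = 0.0747), and Sema3a, a secreted repellent that also orients cortical dendrites, one of 0.15 (SE 0.08, unadjusted p = 0.0846), both with an adjusted p of 1 by edgeR. Nrp1, the neuropilin that binds Sema3a, averaged 362 ± 153 CPM over knockout libraries against 334 ± 106 CPM over controls, and Plxna4 673 ± 162 against 656 ± 85.3 CPM (SD, n = 6 libraries each). Among semaphorins as a family, 4 of 14 log2 fold changes were positive and 10 negative, from -0.17 (Sema4a) to 0.30 (Sema3c). Plexins and neuropilins had 5 positive and 5 negative of 10, between -0.21 (Plxnd1, known as the receptor of Sema3e) and 0.16 (Nrp1).

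Ephrins and their receptors gave no call. Of 11 Eph receptors 5 were positive and 6 negative, and of 8 ephrins 2 were positive and 6 negative. Epha8, a receptor of A-type ephrins with low levels here, had the lowest value of the receptors at -0.50 (SE 0.27), and Efna5, a repellent ephrin that is graded in cortex and thalamus, the lowest of the ligands at -0.33 (SE 0.30; adjusted p = 1 for both by edgeR). In the netrin pathway 3 of 9 were positive. Ntn1 had the largest negative value of all members, -0.70, with an SE of 0.55, since its control sums lay between 7.92 and 30.1 CPM and its knockout sums between 6.43 and 13.5 CPM. Dcc, the attractive netrin receptor, was at -0.17 (SE 0.11). Slit1, a Robo ligand, was at -0.30 (SE 0.16), with knockout sums of 33.6 to 49.6 CPM and control sums of 46.7 to 60.9 CPM (adjusted p = 1 for each). The widest SE of all members was that of Robo3 (0.87).

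**Figure D2:**
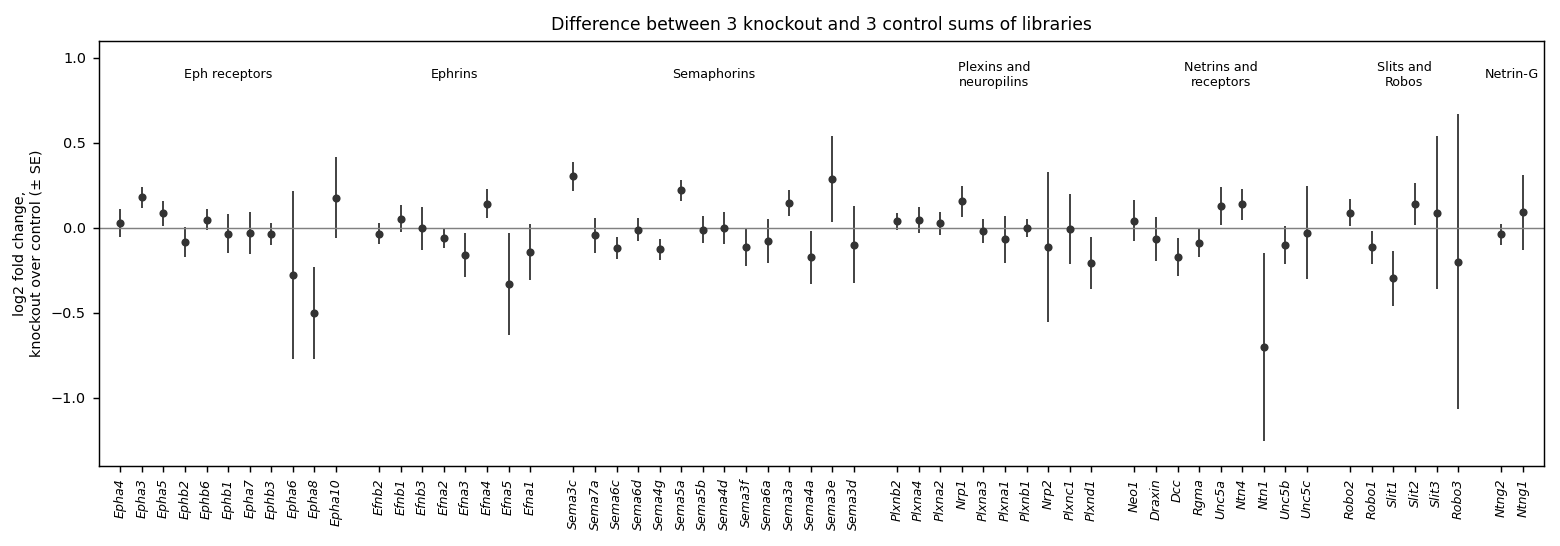
Log2 fold change of each gene between 3 knockout and 3 control sums of libraries, with bars for 1 SE, ordered as in the plot of levels. Most points lie close to 0, Sema3c is the highest at 0.30, and Ntn1 the lowest at -0.70 with an SE of 0.55.

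Split by labelled part, the comparison stayed without a called member. Among libraries labelled rostral, 59 members were tested, 0 were called, 0 had an unadjusted p under 0.05 and 0 had groups that did not overlap, where 0% of all genes were called, 1.05% had such a p and 5.07% had groups apart (edgeR). DESeq2 also called 0. The smallest p-values in rostral libraries were those of Sema3c (log2 fold change 0.17, SE 0.10), Dcc (-0.33, SE 0.20), Efnb3 (0.27, SE 0.24), Ntng1, a membrane-anchored netrin-G (0.29, SE 0.26), and Sema3d, a secreted semaphorin (-0.29, SE 0.27), each with an adjusted p of 1 by edgeR. Among libraries labelled caudal, 0 of 59 were called by edgeR (0.0472% of all genes, 0.0354% higher and 0.0118% lower) and 0 by DESeq2, while 10 (16.9%) had an unadjusted p under 0.05, against 5.13% of all genes. Groups apart were seen for 8 members (13.6%, against 10.2% of all genes), and in all 8 the knockout libraries were the lower. The direction of groups apart was not counted over all genes, so no background stands beside it. Of the members' log2 fold changes 22 were positive and 37 negative, with a median of -0.06 against -0.00125 over all genes. Several marker lists had mostly negative values there, with 5 of 5 endothelial markers negative (median log2 fold change -0.52), 5 of 5 of oligodendrocyte precursors (-0.96) and 5 of 6 of meninges and mural cells (-0.76). Negative too were 15 of 16 ventral forebrain and striatal markers (-0.43), 6 of 8 of hem and hippocampus (-0.45), 4 of 5 of microglia (-0.10) and 2 of 2 of choroid plexus (-1.4). Radial glia had 4 of 6 positive and excitatory neurons 5 of 8, and 0 of all these were called by edgeR. An unadjusted p under 0.05 by edgeR was reached by Olig1, Olig2, Sox10 and Pdgfra of the oligodendrocyte precursors and Cx3cr1 and Csf1r of microglia, all lower, and by Pax6 of radial glia, which was higher. Summed oligodendrocyte precursor markers were at 49.99, 63.4 and 36.1 CPM in knockout caudal 5, 2 and 7 against 83.9, 102 and 126 CPM in control caudal 1, 3 and 9, without overlap, while the summed endothelial and meningeal markers overlapped. The part of these cell types in the members' values, and that of the mitochondrial share of knockout caudal 5, was not tested. Efnb3, a transmembrane ephrin of the corpus callosum and corticospinal tract, was at 86.9, 81.1 and 82.6 CPM in knockout caudal 5, 2 and 7 and at 95.9, 111 and 115 CPM in control caudal 1, 3 and 9. Its log2 fold change was -0.35 (SE 0.10, unadjusted p = 0.00685, adjusted p = 0.717 by edgeR). In libraries labelled rostral, the same gene stood at 93.5, 149 and 118 CPM in knockout 5, 2 and 7 against 91.8, 136.5 and 79.3 CPM in control 1, 3 and 9. The difference between parts was -0.61 (SE 0.27) with an adjusted p of 0.998, so it was not shown to depend on the part. Sema4g (log2 fold change -0.24, SE 0.08), Epha8 (-0.79, SE 0.26), Epha6, an A-type Eph receptor (-0.82, SE 0.28), and Sema5a (0.54, SE 0.19) had adjusted p-values of 0.784 to 0.881 in the caudal libraries by edgeR. Sema5a was thus the 1 of these 5 with a higher value in knockout, at 138, 237.5 and 209 CPM in knockout caudal 5, 2 and 7 against 137, 144 and 125 CPM in control caudal 1, 3 and 9. The control caudal group contained 1 library with low Nr2f1 (control 3) and so did the knockout caudal group (knockout 2), while Nr2f1 in the other libraries stood at 248 and 348 CPM for knockout 5 and 7 and at 343 and 373 CPM for control 1 and 9. The part that this has in the caudal values was not tested. For the interaction of genotype and part over all 12 libraries, 0 of 60 members were called by edgeR or DESeq2 (0% of all genes by edgeR) and 1, Efnb3, had an unadjusted p under 0.05 (2.74% of all genes). Next by p came Sema5a (difference of log2 fold changes, caudal less rostral, 0.68, SE 0.31), Rgma, a repulsive ligand of neogenin (-0.47, SE 0.23), Unc5c, a repulsive netrin receptor (-0.88, SE 0.47), and Sema6a, a transmembrane semaphorin (-0.60, SE 0.34), each with an adjusted p of 0.998 by edgeR.

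Caudal against rostral libraries as labelled gave 0 called members of 60 by edgeR (0% of all genes called), while 10 members (16.7%) had an unadjusted p under 0.05, against 9.95% of all genes. Efna3, a glycolipid-anchored ephrin, was the 1 member that DESeq2 called (log2 fold change -0.61, adjusted p = 0.0233). By edgeR its log2 fold change was -0.61 (SE 0.14, adjusted p = 0.423). Libraries labelled rostral held 23.8, 31.1 and 16.2 CPM in knockout 5, 2 and 7 and 29.8, 29.7 and 20.9 CPM in control 1, 3 and 9. Those labelled caudal held 14.02, 15.4 and 15.6 CPM in knockout 5, 2 and 7 and 17.1, 16.6 and 18.4 CPM in control 1, 3 and 9. Only knockout rostral 7 fell into the caudal range. Sema7a, a membrane-anchored semaphorin that promotes axon growth through integrins, had a similar arrangement, at 90.2, 73.8 and 53.7 CPM in rostral knockout 5, 2 and 7, at 96.2, 70.1 and 72.9 CPM in rostral control 1, 3 and 9, and at 51.4 to 63.6 CPM in the 6 caudal libraries (log2 fold change -0.38, SE 0.12, adjusted p = 0.43 by edgeR). Epha4 had a log2 fold change of 0.39 (SE 0.11), Sema3c one of 0.32 (SE 0.11) and Plxnb2 one of 0.22 (SE 0.06), with adjusted p-values of 0.43 to 0.436 by edgeR. Plxnb2 was the 1 member (1.67%, against 0.372% of all genes) whose 6 caudal values, from 372 to 422 CPM by library total, all lay above the 6 rostral ones, from 304 to 365 CPM. Each labelled part held libraries on both sides of the gap in Nr2f1, and the part that this has in these values was not tested.

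Single libraries of the same genotype also differed widely in some members. A ratio of extremes among single libraries is not comparable with the genotype fold changes above. A ratio of more than 2 between the highest and lowest library of a genotype was seen for 31 members. The share of all genes with such a ratio was not counted, so wide scatter is not shown to be particular to the set. Slit3, a secreted Robo ligand, led with a 32.4-fold range in knockout (0.879 CPM in rostral 5 to 28.5 CPM in rostral 2), followed by Nrp2, the receptor of Sema3f, at 10.8-fold, Epha6 at 7.86-fold, Ntn1 at 6.92-fold in control and Efna5 at 4.81-fold. Epha8 (3.91-fold), Efna1 (3.08-fold), Unc5c (3.03-fold), Robo1 (2.92-fold) and Plxnd1 (2.90-fold) completed the 10 widest at a mean of at least 1 CPM. Plxnb1, the receptor of Sema4d, was the most even member, with knockout libraries at 170 to 190 CPM and controls at 174 to 187 CPM. Without the 2 libraries of knockout replicate 5 the range of Slit3 in knockout was 7.18-fold and that of Nrp2 4.1-fold, and without those of knockout replicate 2 they were 13.2-fold and 5.01-fold. The range of Ntn1 in control was 2.72-fold without replicate 3.

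These differences were set beside Nr2f1 by counting, over the 30 pairs of libraries that share a genotype (15 in knockout, 15 in control), how often the library with more Nr2f1 also had more of the gene. The pairs reuse libraries, and libraries may share an embryo, so the count is a description and carries no test. Nrp1 was ordered as Nr2f1 in 29 pairs and Ntn4, a netrin of basement membranes, in 3. They were the only members at or beyond 27 and 3 (1 of 60 each, or 1.67%), limits reached by 1.0% and 1.09% of all 17733 genes, so at these limits the set lay near the background. The members' median was 16.5 pairs and that of all genes 15. Outside the middle band of 12 to 18 pairs lay 76.7% of members and 55.5% of all genes (77.6% and 57.5% at a mean of at least 1 CPM), a band chosen after the values were seen. In all, 27 members were ordered as Nr2f1 in more than 18 pairs and 19 in fewer than 12.

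Markers of regions within and beside the cortex were set in the same order, after the values were seen. The summed 8 markers of cortical hem and hippocampus, which belong to the dissected tissue, were ordered as Nr2f1 in 24 of 30 pairs, and 7 of the 8 genes were so in at least 18. Lhx9, one of them, was at 0.687, 0.586, 5.78, 13.1, 23.0 and 14.3 CPM in knockout caudal 2, rostral 5, rostral 7, caudal 5, rostral 2 and caudal 7, in rising order of Nr2f1. In control it was at 1.45, 0.885, 4.12, 15.3, 19.4 and 17.2 CPM in rostral 9, caudal 3, rostral 1, caudal 1, rostral 3 and caudal 9. The summed 16 markers of ventral forebrain and striatum went the other way, ordered as Nr2f1 in 5 of 30 pairs, with all 16 genes at 12 pairs or fewer. Of the other lists, excitatory neuron markers stood at 10 pairs, oligodendrocyte precursors at 12, microglia at 16, endothelium at 17, meninges and mural cells at 18, radial glia at 19 and choroid plexus at 21. The members were compared in the same way with the summed ventral markers, and not with the other lists. Efna5, Ntn4 and Robo1 were ordered as the ventral markers in 24 of 30 pairs, Efnb1 in 23 and Efnb2 in 21. No member was so in more than 24 pairs, where 1.02% of all 17733 genes were in 27 or more. Ephb1, Ephb3, Ntng2 and Sema4d were so in 3 pairs and Nrp1 in 4. The former were the only members at 3 or fewer, a limit reached by 0.789% of all genes. Gad1, Gad2 and the Dlx genes of the ventral list are also made by cortical interneurons, so this list does not mark ventral tissue alone. The part of hem, hippocampal and ventral tissue, or of interneurons, in the order of the members was not tested.

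Nrp1 (ENSMUSG00000025810.10, GRCm39 chromosome 8, 129085085 to 129229844) was at 227 CPM in knockout caudal 2, 268.5 in rostral 5, 228 in rostral 7, 347 in caudal 5, 540.5 in rostral 2 and 563 in caudal 7, in rising order of Nr2f1. In control it was at 218 CPM in rostral 9, 219 in caudal 3, 286 in rostral 1, 398 in caudal 1, 439 in rostral 3 and 444 in caudal 9, again in rising order of Nr2f1. The labelled part did not sort these values, since rostral 2 and 3 were among the high libraries and caudal 2 and 3 among the low. Nrp2 was at 89.7, 34.0, 170, 112, 367 and 168 CPM in the knockout libraries in that same order and at 86.6, 126, 82.0, 199, 333 and 238 CPM in the control ones. Both highest values belonged to libraries labelled rostral, knockout 2 and control 3. Of the plexins with which neuropilins pair, Plxna1 and Plxna3 were each ordered as Nr2f1 in 25 pairs, Plxna2 in 11 and Plxna4 in 10.

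**Figure D3:**
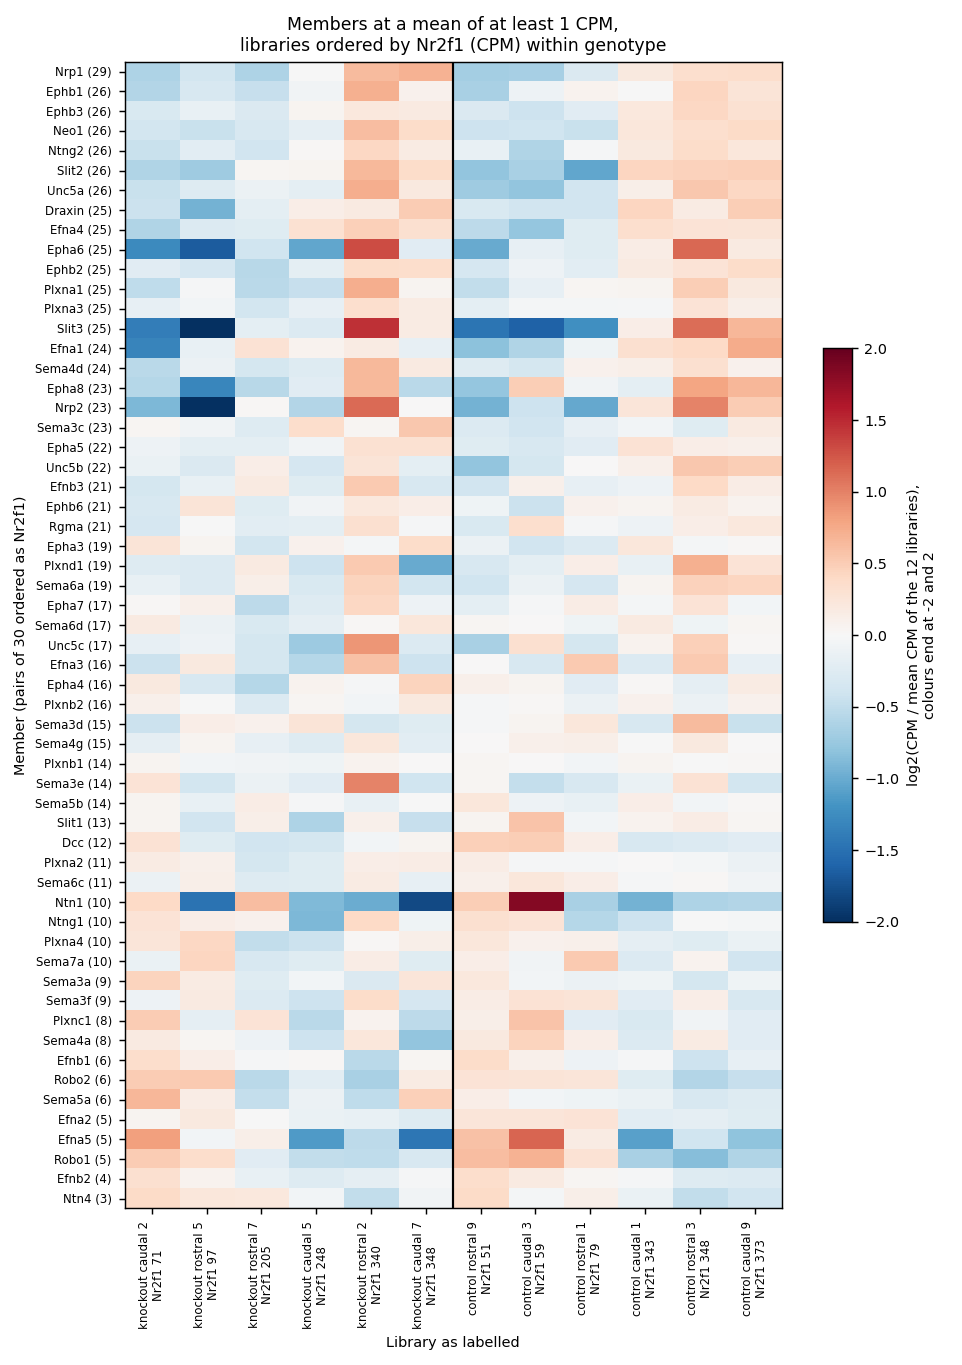
Members at a mean of at least 1 CPM (rows, with the number of 30 pairs ordered as Nr2f1) in 12 libraries (columns, in rising order of Nr2f1 within knockout and control, divided by a line). Colour gives log2 of CPM over the mean of the 12 libraries. From Nrp1 (29) and Slit2 (26) at the top to Efna5 (5) and Ntn4 (3) at the bottom, the side of high values changes, in both genotypes.

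Slit2 and Slit3 stood near one end of this order and the Robos near the other, with Slit1 in the middle. Slit2 was ordered as Nr2f1 in 26 pairs and Slit3 in 25, whereas Robo2 was in 6 and Robo1 in 5. Slit1 was in 13. Slit3 (ENSMUSG00000056427.11, chromosome 11, 35012051 to 35599334) was at 3.97, 0.879, 9.10, 8.57, 28.5 and 11.6 CPM in knockout caudal 2, rostral 5, rostral 7, caudal 5, rostral 2 and caudal 7. In control it was at 3.76, 3.39, 4.43, 11.4, 22.6 and 16.5 CPM in rostral 9, caudal 3, rostral 1, caudal 1, rostral 3 and caudal 9. Robo1 (ENSMUSG00000022883.12, chromosome 16, 72105194 to 72842983), the receptor that Slits bind on cortical axons and interneurons, was at 591, 525.5, 353.5, 294, 291 and 333 CPM in these knockout libraries and at 636, 672, 505, 263, 230 and 274 CPM in these control libraries. In each genotype the 2 libraries of lowest Nr2f1 had the 2 highest Robo1 values.

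Ephrins and Eph receptors were divided as well. Ephb1 and Ephb3, receptors of B-type ephrins, were ordered as Nr2f1 in 26 pairs each and Ephb2 in 25, while of the B-type ephrins Efnb2 and Efnb1 were in 4 and 6 and Efnb3 in 21. Among A-type genes, Epha6 (25 pairs) and Efna4 (25) went with Nr2f1, and Efna5 and Efna2 (5 each) went against it. Efna5 (ENSMUSG00000048915.13, chromosome 17, 62911179 to 63188312) was at 20.7, 11.4, 12.7, 5.36, 8.15 and 4.30 CPM in knockout and at 17.7, 26.3, 13.2, 5.53, 8.92 and 6.73 CPM in control, both in rising order of Nr2f1. The libraries under 100 CPM of Nr2f1 thus had 11.4 to 26.3 CPM of Efna5, and those at 248 CPM or more had 4.30 to 8.92 CPM, with knockout rostral 7 between them in Nr2f1 (205 CPM) at 12.7 CPM. Epha6 was at 14.96 CPM in knockout rostral 2 and 13.5 CPM in control rostral 3 and at 1.90 to 6.84 CPM in the other 10 libraries. Epha4, Epha7 and Efna3 had 16, 17 and 16 pairs, near the middle.

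In the netrin pathway, Neo1 and Unc5a, a repulsive netrin receptor, were ordered as Nr2f1 in 26 pairs and Draxin in 25. Neo1 was at 336 to 406 CPM in knockout libraries other than rostral 2 (703 CPM) and caudal 7 (590.5 CPM), and at 338 to 349 CPM in control rostral 9, caudal 3 and rostral 1 against 535 to 601 CPM in the other 3 controls. Dcc was in 12 pairs. Ntn4 ran the other way, at 25.96, 23.3, 23.0, 19.2, 14.2 and 19.1 CPM in knockout libraries and at 25.9, 19.3, 21.7, 18.2, 14.2 and 15.2 CPM in control, in rising order of Nr2f1. Its share of pairs went from 3 of 30 to 20.0% when libraries were scaled by TMM. Nrp1 kept 93.3% to 100% of pairs under the 10 alternatives tried. Of the semaphorins, Sema4d (24 pairs) and Sema3c (23) stood highest and Sema5a (6) lowest.

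**Figure D4:**
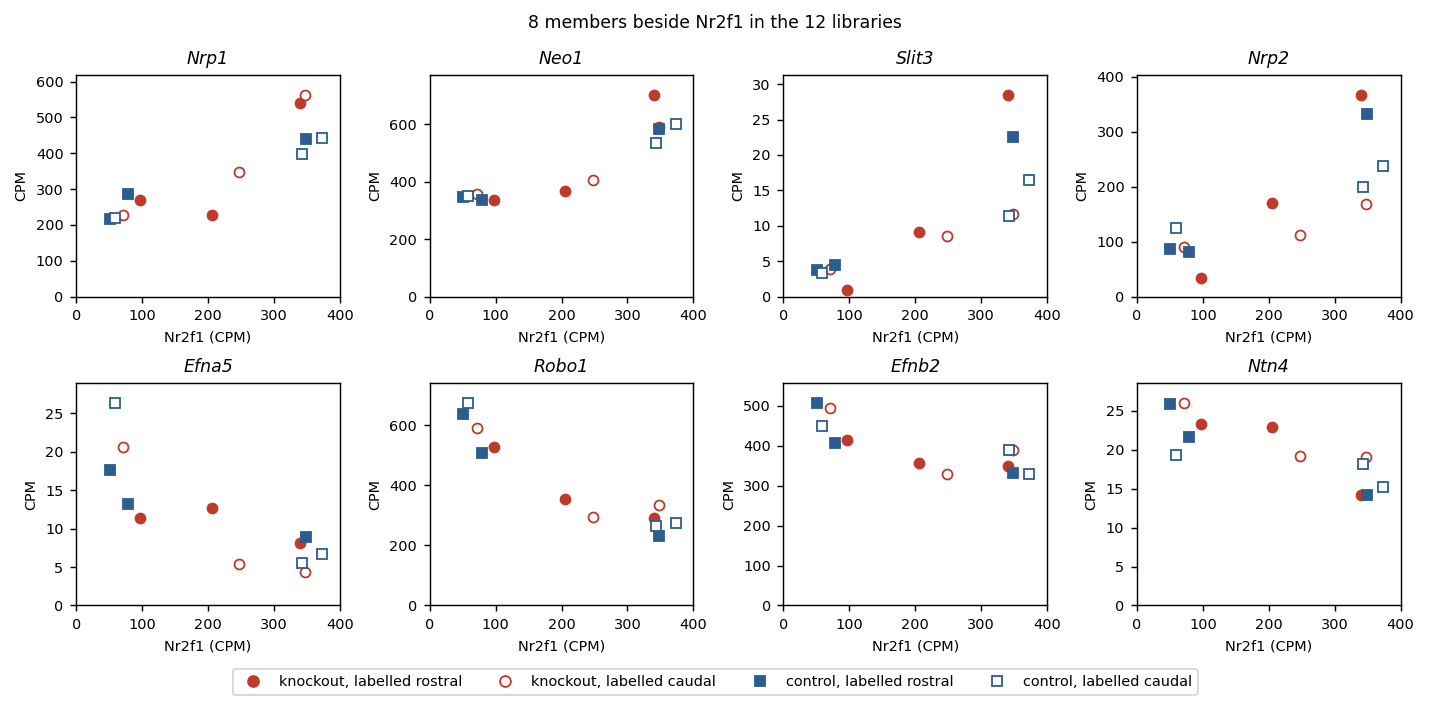
Level of 8 members (CPM, linear axes from 0) against Nr2f1 (CPM), 1 point per library, with circles for knockout, squares for control, filled for libraries labelled rostral and open for caudal. Nrp1, Neo1, Slit3 and Nrp2 are highest at an Nr2f1 of 340 CPM or more, and Efna5, Robo1, Efnb2 and Ntn4 are highest under 100 CPM, with filled and open symbols at both ends.

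Promoter sequences are shown for the members at both limits of that order, Nrp1 and Ntn4, and for the 2 with the widest range, Slit3 and Nrp2. They are the 250 bases before the gene start in the RefSeq table of GRCm38.p6, another build than that of the counts. The table held 64 promoters of 51 of the 60 genes. Capitals mark AGGTCA or its reverse complement TGACCT, the recognition element known for nuclear receptors, the family of Nr2f1, and both strands were searched. A match is a run of letters and not a bound site, and its absence concerns this window only.
Nrp1 (chr8:128358823-128359072, plus strand): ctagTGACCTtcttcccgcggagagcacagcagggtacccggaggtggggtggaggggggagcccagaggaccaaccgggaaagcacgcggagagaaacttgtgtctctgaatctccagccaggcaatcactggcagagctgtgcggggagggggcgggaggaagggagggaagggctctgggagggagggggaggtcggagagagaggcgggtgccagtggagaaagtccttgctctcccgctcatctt
Ntn4 (chr10:93640799-93641048, plus strand): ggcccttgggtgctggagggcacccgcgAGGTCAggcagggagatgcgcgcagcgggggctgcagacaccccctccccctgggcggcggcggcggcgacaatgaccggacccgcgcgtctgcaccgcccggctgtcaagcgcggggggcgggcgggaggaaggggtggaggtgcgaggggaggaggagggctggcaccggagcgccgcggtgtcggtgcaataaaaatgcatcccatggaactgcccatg
Slit3 (chr11:35121206-35121455, plus strand): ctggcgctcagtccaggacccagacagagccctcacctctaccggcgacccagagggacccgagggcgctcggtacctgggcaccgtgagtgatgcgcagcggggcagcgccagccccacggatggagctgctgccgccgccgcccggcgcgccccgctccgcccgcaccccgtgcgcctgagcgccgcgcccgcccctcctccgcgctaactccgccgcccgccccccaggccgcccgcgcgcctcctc
Nrp2 (chr1:62703067-62703316, plus strand): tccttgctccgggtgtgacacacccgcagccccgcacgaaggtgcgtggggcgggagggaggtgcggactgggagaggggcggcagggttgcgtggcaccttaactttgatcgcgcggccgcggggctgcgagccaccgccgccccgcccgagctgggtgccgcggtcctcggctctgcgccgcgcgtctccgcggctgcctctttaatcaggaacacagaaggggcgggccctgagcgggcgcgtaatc
Nrp1 and Ntn4, which were ordered in opposite ways, each held 1 match, and Slit3 and Nrp2 held 0. Over the set, 6 of 64 promoters (9.38%) had a match, against 14% of the 32851 promoters in the table. The members' promoters had a median GC content of 64.6% against 52.4% for all.

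Some members, picked after their values were seen, were highest in the same libraries as the summed markers of the ventral forebrain and striatum, tissue that the dissection was to leave out. Gad1, Gad2 and the Dlx genes among these markers are also made by interneurons within the cortex, so a high sum need not mean ventral tissue. The summed level of 16 such markers (Gad1, Dlx2, Ebf1, Drd1 and others) lay between 175 and 836 CPM in the knockout libraries and between 271 and 1057 CPM in the controls, and in the genotype comparison of sums all 16 had a negative log2 fold change, with a median of -0.37, 0 called by edgeR and 0 at an unadjusted p under 0.05 (the members' median was -0.03). Ntn1 (ENSMUSG00000020902.13, chromosome 11, 68100190 to 68291649), which striatum and ventricular zones are known to make, was at 50.2 CPM in control caudal 3, where the markers summed to 1057 CPM. It was at 19.7 CPM in control rostral 9, 18.6 CPM in knockout caudal 2 and 21.4 CPM in knockout rostral 7, where they summed to 784, 836 and 660 CPM. In the other 8 libraries Ntn1 ran from 4.003 to 9.34 CPM and the markers from 175 to 402 CPM. Plxnc1, the receptor of Sema7a, was at 65.0 to 89.0 CPM in those same 4 libraries and at 41.1 to 62.4 CPM in the other 8, and Robo3 at 0.611 to 1.55 CPM against 0 to 0.229 CPM. These 3 genes are examples, and the members above that were ordered as the markers in 21 or more pairs moved with them as well. The part of ventral tissue, or of interneurons, in any of these values was not tested. Choroid plexus markers were near 0 in most libraries, and their sum exceeded 10 CPM in control caudal 1 (13.3 CPM) and control rostral 3 (54.5 CPM).

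**Figure D5:**
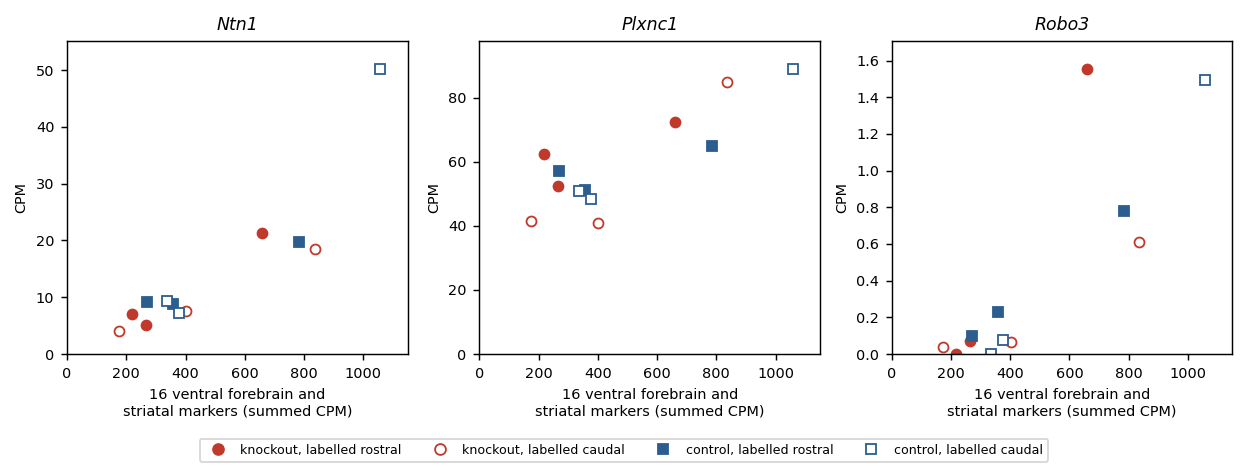
Ntn1, Plxnc1 and Robo3 (CPM) against the summed CPM of 16 ventral forebrain and striatal markers, 1 point per library, with circles for knockout, squares for control, filled for rostral and open for caudal labels. The 4 libraries at 660 CPM of markers or more hold the 4 highest values of each gene, up to 50.2 CPM of Ntn1 in control caudal 3.

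Other genes of the same pathways gave no call either. Of 22 further receptors and ligands, 20 were tested in the sums, 0 were called by edgeR in either direction, 1 had an unadjusted p under 0.05, and the median log2 fold change was -0.03. Unc5d, a netrin receptor of multipolar upper layer neurons, had the smallest p among them, at 0.24 (SE 0.09, unadjusted p = 0.0308, adjusted p = 1), followed by Sema4c at -0.07 (SE 0.05, unadjusted p = 0.181, adjusted p = 1). Of 45 intracellular mediators, from Rac1 and Rhoa to the collapsin response mediators, 45 were tested, 0 were called and 0 had an unadjusted p under 0.05, with 14 positive, 31 negative and a median of -0.03. The smallest p among these was that of Abl2, a cytoplasmic kinase, at -0.09 (SE 0.06, unadjusted p = 0.176, adjusted p = 1 by edgeR). In libraries labelled rostral or caudal, in the comparison of the parts and in the interaction, 0 genes of either list were called.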

How the data were processed

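The authors deposited 1 table per library of estimated counts of read pairs per gene, made with featureCounts 2.0.3 on the gencode vM28 annotation in stranded paired mode, with multi-mapping and overlapping pairs counted as fractions, per the file headers. Alignment was with STAR 2.7.8a to GRCm39, per the submitters' processing notes. Total counts ran from 25223733 to 30383672 per library, so precision was limited by the 3 samples per group more than by counting, except for members near 1 CPM. Deposited counts were rounded for tests and scaled to CPM by library total for levels. Levels between genes are CPM per kb of the deposited exon length. Gene-wise tests used edgeR 4.0.16 in R 4.3.3 (TMM, default expression filter, robust quasi-likelihood fit) with Benjamini-Hochberg adjustment over all genes tested, and a threshold of 0.05. CPM given for sums and for group means of tests use TMM scaling.

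Groups, parts and replicate numbers were taken from the titles. Titled partners were checked for pairing by the correlation of their deviations from group means over 14238 autosomal genes. It ran from -0.542 to -0.0802 over the 6 embryos. Each group mixed libraries of higher and lower Nr2f1, and partners that differ in this can give a negative correlation even if they share an embryo. The check therefore cannot decide whether the numbers pair the libraries. No block was used in the main fits, and the block was run as an alternative. Over all 66 pairs of libraries, chi-square per degree of freedom was 10.1 to 145, so that none agreed within counting noise.

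The members and lists were chosen with earlier results of these data known. Named by rule were members called in any test, the 5 of smallest p per comparison, those at or beyond 27 or 3 of 30 pairs, the 10 widest within a genotype and the 5 highest and lowest levels per kb. Other members were named after their values were seen, to show how families divided. Alternatives were DESeq2 1.42.0, its size factors, no expression filter, each replicate left out, the replicate block and separate libraries. Added after seeing the data were fits without knockout rostral 7 and caudal 5, the comparison of parts without control rostral 1 and 3, and CPM without mitochondrial counts. The scripts were tested on simulated data.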

Additional observations from a re-analysis of the deposited data

How the results depend on the processing

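The number of members called stayed at 0 in 55 of 57 alternatives and was 1 in the other 2, which were the sums with no expression filter (Sema3c, adjusted p = 0.00205) and the parts by DESeq2 (Efna3, adjusted p = 0.0233, with 1 member against 0). All 65 alternatives for the log2 fold changes of Sema5a, Sema3c, Epha3, Sema4g and Sema3a kept their sign. The count over all genes moved more. In the sums it was 6, and 32 by DESeq2, 113 with no filter, 2 to 21 with a replicate left out, 3 with the 12 libraries separate, 10 with these less control rostral 1 and 3, and 3 with these less knockout rostral 7 and caudal 5. In rostral libraries it was 0, and 4 by DESeq2, 2 with no filter and 2 with 12 libraries in 1 fit. In caudal libraries it was 8, and 77, 57 and 3 in the same alternatives, and 2 to 8 with a replicate left out. Between parts it was 0, and 83 by DESeq2, 2 with no filter and 0 to 6 with a replicate left out, where the interaction also gave 0 to 6. With the replicate block on the number before the # sign of the titles, the counts were 8 in the sums, 0 in rostral and 6 in caudal libraries, and with the titled embryo as block 0 between parts and 0 for the interaction, and no member was called. The cause of these changes was not tested.

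The 2 members at the limits of the order beside Nr2f1 became 7 without control rostral 1 and 3, 5 without knockout rostral 7 and caudal 5, 1 without mitochondrial counts, and 2 to 15 with a replicate left out, where the limits were set at the same share of 21 pairs. The range within knockout of Epha6 was 2.71-fold, of Efna5 2.97-fold, of Efna1 1.38-fold and of Unc5c 1.54-fold without replicate 2. That of Epha8 was 2.33-fold without replicate 5 and 2.13-fold without replicate 2, and that of Plxnd1 1.91-fold without replicate 7. Depth limits statements on Robo3 and Epha10, which lie under 1 CPM, and 3 sums per genotype limit all comparisons.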
